A study of Mus musculus with 12 samples.

Results

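The genes described here encode parts of the phagocyte NADPH oxidase (Cybb, Cyba, Ncf1, Ncf4 and Rac2), the proton channel that works beside it (Hvcn1) and the inducible nitric oxide (NO) synthase (Nos2). They were picked by name, 7 of the 35275 genes counted, and all 7 passed the filter on low counts. Their RNA was measured in macrophages grown from bone marrow of wildtype mice (BMDMs), in 3 groups of 4 libraries. All groups received IL4, IL10 and MCSF, cytokines that drive bone marrow cells toward an M2 phenotype, for 6 days, together with DMSO (the solvent control), olaparib (a PARP inhibitor) or MNA (methyl-nicotinamide, a derivative of NAD). The labels give no dose, strain, sex or donor. The paper describes marrow from several donor mice, without saying which library came from which, so the p-values measure the spread between these cultures.

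The phagocyte oxidase moves electrons from NADPH in the cytosol across a membrane to oxygen and so makes superoxide in the phagosome. Its membrane part is a flavocytochrome of 2 proteins, the catalytic subunit from Cybb and its partner from Cyba. On activation, cytosolic subunits, among them those from Ncf1 and Ncf4, and a Rac GTPase join it. Protons that flow through the Hvcn1 channel balance the charge carried by the electrons. Nos2 makes NO from arginine, NADPH and oxygen with tetrahydrobiopterin as a cofactor, and in mouse macrophages it is a classic marker of the inflammatory (M1) state, whereas arginase 1 (Arg1), which uses the same amino acid, marks the M2 state.

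Levels are given as CPM, counts divided by the TMM-normalized library size so that libraries compare. Differences are log2 fold changes ± standard error from edgeR's quasi-likelihood test over the 12 libraries. A gene was called where its p, adjusted over all tested genes by the Benjamini-Hochberg method, was under 0.05. The libraries held 21146291 to 31446849 counts. MNA replicate 2 stood with the DMSO libraries. Its root mean square difference in log2 CPM over all tested genes was 0.334 to 0.421 from DMSO libraries and 0.902 to 0.944 from the other MNA libraries, while the DMSO libraries differed from each other by 0.365 to 0.478. It was kept as labelled, it is shown apart, and most comparisons with MNA are also given without it. In bulk RNA, fewer cells of a type and less RNA per cell cannot be told apart.

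Olaparib-treated BMDMs held more RNA of the catalytic subunit Cybb, of Rac2, of Hvcn1 and of Nos2 than DMSO controls, between 2.14-fold and 3.12-fold by the fitted values, while Cyba differed by less than its standard error. With MNA the genes split: Cybb, Rac2 and Ncf4 rose, whereas Cyba, Ncf1 and Nos2 fell. Of the 7 genes, 4 were called higher with olaparib, where 14.3% of all tested genes were called higher and 12.8% lower. With MNA 3 were called higher and 3 lower, against 16.3% and 12.3% of all tested genes. Between the treatments, 4 were higher with olaparib than with MNA, where 10.9% of all tested genes were called higher and 10.9% lower. The count with MNA fell from 6 to 3 when DMSO replicate 2 or any of MNA replicates 1, 3 and 4 was left out.

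**Figure D1:**
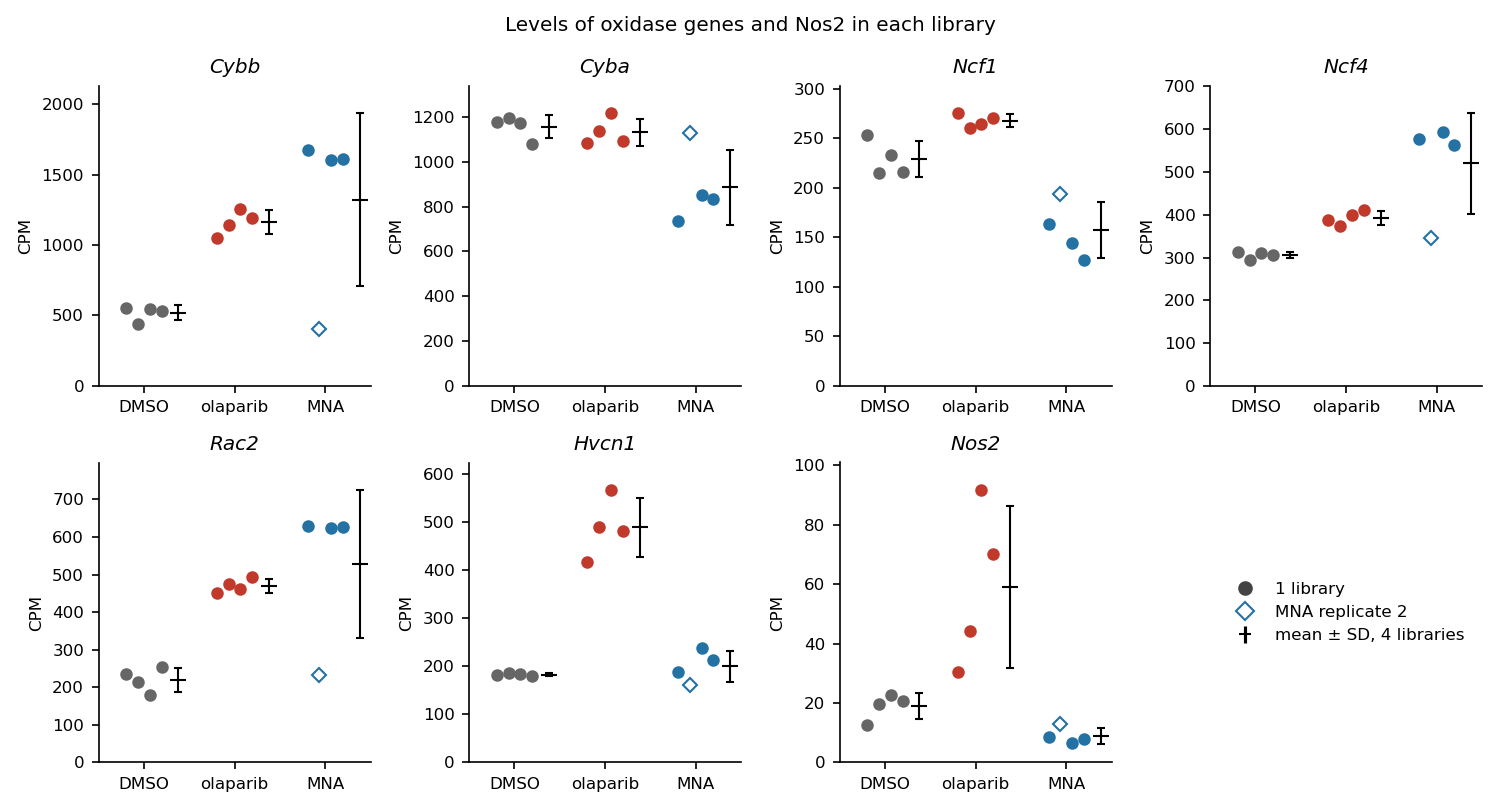
Level in CPM (vertical axes, starting at 0) of each of the 7 genes in the 4 DMSO, 4 olaparib and 4 MNA libraries. Each point is 1 library, the open diamond is MNA replicate 2, and the bars give the mean ± SD of 4 libraries. Cybb and Rac2 step up from DMSO to olaparib to MNA replicates 1, 3 and 4, Hvcn1 and Nos2 are high only in the olaparib libraries, and MNA replicate 2 lies inside or near the DMSO range for most genes but between DMSO and olaparib for Ncf4.

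Without MNA replicate 2 the spread estimated for all groups was smaller (common dispersion 0.0123 instead of 0.0333) and more genes were called throughout. Olaparib then raised 6 of the 7 genes, where 22.5% of tested genes were called higher and 21.2% lower. MNA again raised 3 and lowered 3, where 27.2% were called higher and 26.9% lower. Between the treatments, 4 were higher and 3 lower with olaparib, where 21.5% were called higher and 20.7% lower. Most of these genes were well expressed. Per kilobase of exon, the DMSO level was highest for Cyba (1113 ± 48.8 CPM per kb, SD, n = 4), followed by Ncf4 (151 ± 3.90), Cybb (89.5 ± 9.13), Rac2 (71.0 ± 10.4), Ncf1 (62.6 ± 4.97), Hvcn1 (51.2 ± 0.653) and Nos2 (4.28 ± 1.0). Of neighbours in that order, the ranges mean ± SD of Cybb and Rac2 overlapped, as did those of Rac2 and Ncf1.

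Promoter sequences in the RefSeq table (GRCm38.p6) were matched for 3 of the 7 genes, Cybb, Cyba and Ncf1. The other genes had no match there, and whether the motifs below bear on the RNA levels was not tested. Each line gives the 250 bases before the annotated start, 5′ to 3′ on the strand of the gene, with motif matches in capitals.
Cybb, chrX:9469325-9469574, minus strand: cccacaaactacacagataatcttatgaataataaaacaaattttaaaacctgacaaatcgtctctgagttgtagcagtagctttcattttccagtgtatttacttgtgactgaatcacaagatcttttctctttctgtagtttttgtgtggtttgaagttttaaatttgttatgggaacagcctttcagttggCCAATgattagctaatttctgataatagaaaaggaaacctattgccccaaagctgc
Cyba, chr8:122432941-122433190, minus strand: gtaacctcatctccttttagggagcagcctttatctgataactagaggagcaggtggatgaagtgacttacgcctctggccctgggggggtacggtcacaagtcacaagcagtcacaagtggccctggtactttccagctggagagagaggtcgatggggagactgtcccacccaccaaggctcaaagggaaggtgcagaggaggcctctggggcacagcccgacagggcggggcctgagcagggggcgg
Ncf1, chr5:134229626-134229875, minus strand: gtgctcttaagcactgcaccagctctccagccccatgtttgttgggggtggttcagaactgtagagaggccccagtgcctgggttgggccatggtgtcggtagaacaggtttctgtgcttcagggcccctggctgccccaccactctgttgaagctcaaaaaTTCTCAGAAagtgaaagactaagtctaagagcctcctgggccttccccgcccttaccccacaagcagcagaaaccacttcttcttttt
Motifs of 3 kinds were searched on both strands of the 300-base windows, which also hold 50 bases after the start. These were a purine box of the kind PU.1 binds (GAGGAA), the CCAAT box and the palindrome TTCNNNGAA that STAT factors bind. PU.1 is the master transcription factor of myeloid cells. The Cybb window held CCAAT 56 to 52 bases before the start, in capitals above, and GAGGAA on the reverse strand at bases 10 to 15 after the start. In the Ncf1 window the STAT palindrome stood 88 to 80 bases before the start, and the Cyba window held none of these letters. Over all 32851 windows in the table, 28.3% held GAGGAA, 37.4% CCAAT and 8.30% TTCNNNGAA. The Cybb start used by RefSeq lies inside the GENCODE gene model of Cybb. The Cyba start used by RefSeq lies outside the GENCODE gene, and its bases after the start were not found in the GENCODE transcripts.

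In the membrane flavocytochrome, Cybb rose with both treatments. Cybb (ENSMUSG00000015340, GRCm38 chromosome X, 9435252 to 9487771, minus strand) encodes the subunit that carries the flavin and the heme groups through which the electrons pass. Its level was 556, 441, 548 and 533 CPM in DMSO replicates 1 to 4, and 1052, 1145, 1252 and 1195 CPM in the olaparib replicates. MNA replicates 1, 3 and 4 stood at 1673, 1600 and 1613 CPM, and MNA replicate 2 at 404 CPM. Every olaparib library lay above every DMSO library, MNA replicates 1, 3 and 4 lay above all of both, and MNA replicate 2 was the lowest of the 12. The log2 fold change was 1.16 ± 0.32 with olaparib (adjusted p = 0.0215) and 1.35 ± 0.33 with MNA (adjusted p = 0.0184). Leaving out MNA replicate 2 narrowed the error, to 1.16 ± 0.08 with olaparib (adjusted p = 1.61e-07) and 1.65 ± 0.08 with MNA (adjusted p = 3.49e-09). In the fit of 12 libraries the call with olaparib was lost when DMSO replicate 2, DMSO replicate 4, olaparib replicate 3 or olaparib replicate 4 was left out (adjusted p up to 0.062). The call with MNA was lost without DMSO replicate 2 or any of MNA replicates 1, 3 and 4, or with these 2 groups fitted alone (adjusted p up to 0.0666).

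Cyba (ENSMUSG00000006519, chromosome 8, 122424776 to 122432930, minus strand) encodes the small membrane partner that stabilizes the catalytic subunit and docks the cytosolic proteins. It stood at 1177, 1196, 1172 and 1082 CPM with DMSO and at 1086, 1136, 1217 and 1094 CPM with olaparib. With MNA it stood at 734, 852 and 833 CPM in replicates 1, 3 and 4 and at 1127 CPM in replicate 2. The DMSO and olaparib libraries were intermixed, and the 3 low values were those of MNA replicates 1, 3 and 4. Olaparib gave a log2 fold change of -0.03 ± 0.11 (adjusted p = 0.861), which passed the threshold in 0 of 21 other fits. Cyba fell by 0.38 on the log2 scale with MNA (standard error 0.11, adjusted p = 0.0288) and by 0.52 without MNA replicate 2 (standard error 0.07, adjusted p = 2.05e-05). This call was lost with these 2 groups fitted alone and without any of DMSO replicates 1 to 3 or MNA replicates 1, 3 and 4 (adjusted p up to 0.0862).

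Because both genes were read in the same library, their ratio does not depend on the scaling between libraries. The Cybb to Cyba ratio of counts was 0.369 to 0.493 with DMSO and 0.969 to 1.09 with olaparib. It was 2.28, 1.88 and 1.94 in MNA replicates 1, 3 and 4 and 0.359 in MNA replicate 2. These ratios are not corrected for length, and Cybb has 5808 exon bases against 1039 for Cyba. Per kilobase of exon the mean of Cyba stayed above that of Cybb. The means were 1091 and 200 CPM per kb with olaparib, and 776 and 280 in MNA replicates 1, 3 and 4. The olaparib ratios were all above the DMSO ratios, and those of MNA replicates 1, 3 and 4 were above both. The mean log2 ratio was 1.19 higher with olaparib than with DMSO (exact permutation test, two-sided, p = 0.0286, the smallest that 4 against 4 allow, and 0.0643 adjusted over the 9 ratio tests). With MNA it was 1.55 higher (exact permutation p = 0.143), and 2.18 higher without MNA replicate 2 (exact permutation p = 0.0571, the smallest that 3 against 4 allow). After adjustment 0 of the 9 ratio tests passed 0.05, and unadjusted 4 of 9 did.

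**Figure D2:**
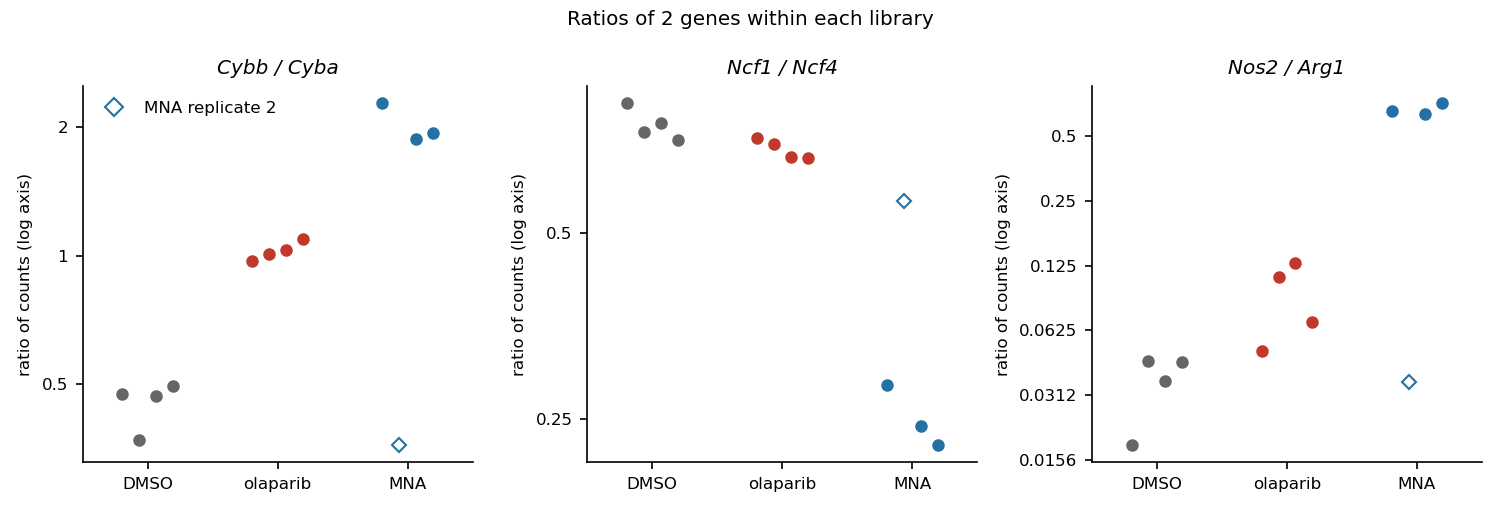
Ratio of the counts of Cybb to Cyba, Ncf1 to Ncf4 and Nos2 to Arg1 (vertical axes, log scale) in each of the 12 libraries by group, with MNA replicate 2 as an open diamond. The Cybb to Cyba ratio lies at 0.369 to 0.493 with DMSO and 0.969 to 1.09 with olaparib, and the Ncf1 to Ncf4 ratio is lowest in MNA replicates 1, 3 and 4.

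The cytosolic partners did not move as a block. Ncf1 (ENSMUSG00000015950, chromosome 5, 134220053 to 134229625, minus strand) encodes the organizer subunit, which is phosphorylated on activation and carries the others to the membrane. It stood at 253, 215, 233 and 216 CPM with DMSO and at 275, 260, 265 and 271 CPM with olaparib. MNA replicates 1, 3 and 4 stood at 164, 144 and 128 CPM and replicate 2 at 194 CPM. All 4 MNA libraries lay below every DMSO library, and every olaparib library lay above every DMSO library. Ncf1 fell by 0.54 on the log2 scale with MNA (standard error 0.11, adjusted p = 0.0142). The rise of 0.22 ± 0.11 with olaparib missed the threshold (adjusted p = 0.139) and passed it without MNA replicate 2 (0.22 ± 0.08, adjusted p = 0.0283). The difference between the treatments was 0.77 ± 0.11 (adjusted p = 0.000619) and was called in all 21 other fits.

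Ncf4 (ENSMUSG00000071715, chromosome 15, 78244801 to 78262580, plus strand) encodes the subunit that binds a phosphoinositide of the phagosome membrane. It stood at 313, 295, 310 and 305 CPM with DMSO, at 387, 375, 399 and 411 CPM with olaparib, at 577, 593 and 564 CPM in MNA replicates 1, 3 and 4 and at 345 CPM in MNA replicate 2. DMSO, olaparib and MNA replicates 1, 3 and 4 formed 3 steps with no overlap, and MNA replicate 2 fell between DMSO and olaparib. The log2 fold change was 0.76 ± 0.14 with MNA (adjusted p = 0.0142) and 0.36 ± 0.14 with olaparib (adjusted p = 0.0659). Without MNA replicate 2 both passed, at 0.92 ± 0.05 (adjusted p = 1.38e-08) and 0.36 ± 0.05 (adjusted p = 6.71e-05).

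So Ncf1 and Ncf4, whose proteins travel in 1 cytosolic complex, were read at a different ratio in the MNA libraries. The Ncf1 to Ncf4 ratio of counts was 0.706 to 0.810 with DMSO, 0.659 to 0.712 with olaparib, 0.284, 0.244 and 0.227 in MNA replicates 1, 3 and 4 and 0.563 in MNA replicate 2. All MNA libraries lay below all DMSO and olaparib libraries. The mean log2 ratio fell by 1.29 with MNA against DMSO (exact permutation p = 0.0286, 0.0643 adjusted over 9 tests) and was 1.16 higher with olaparib than with MNA (exact permutation p = 0.0286, 0.0643 adjusted). When MNA replicate 2 was left out, the fall was 1.58 and the difference between the treatments 1.45 (exact permutation p = 0.0571 for each).

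Rac2 (ENSMUSG00000033220, chromosome 15, 78559167 to 78572783, minus strand) encodes the GTPase of blood cells that switches the assembled oxidase on. It stood at 234, 214, 179 and 254 CPM with DMSO and at 450, 476, 462 and 494 CPM with olaparib. MNA replicates 1, 3 and 4 stood at 630, 624 and 627 CPM, and MNA replicate 2 at 232 CPM. The order of the groups was that of Cybb, with MNA replicate 2 inside the DMSO range. The log2 fold change was 1.09 ± 0.25 with olaparib (adjusted p = 0.00864), called in all 21 other fits, and 1.26 ± 0.25 with MNA (adjusted p = 0.0142). The MNA calls of Rac2, Ncf1 and Ncf4 held in 20 of 21 other fits and were lost with the DMSO and MNA groups fitted alone (adjusted p = 0.064).

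Hvcn1 differed between the treatments. Hvcn1 (ENSMUSG00000064267, chromosome 5, 122206804 to 122242297, plus strand) encodes the voltage-gated proton channel. It stood at 181, 185, 184 and 180 CPM with DMSO and at 417, 489, 566 and 481 CPM with olaparib. With MNA it stood at 187, 238 and 213 CPM in replicates 1, 3 and 4 and at 162 CPM in replicate 2. The olaparib libraries lay above all others, and the DMSO range lay inside that of the 4 MNA libraries. The log2 fold change was 1.42 ± 0.12 with olaparib (adjusted p = 2.51e-05), 0.13 ± 0.11 with MNA (adjusted p = 0.393) and 1.29 ± 0.12 between olaparib and MNA (adjusted p = 3.18e-05). The calls with olaparib, against DMSO and against MNA, held in all 21 other fits. The MNA value was 0.22 ± 0.09 without MNA replicate 2 (adjusted p = 0.0662) and was called there only once replicate number was added as a block (adjusted p = 0.0189). Exons of Tctn1 on the opposite strand cover 44.2% of the Hvcn1 exon bases, and although the libraries came from a stranded kit, whether the deposited counts used strand is not given in the sources used here. Tctn1 itself was read at 3.66 to 7.53 CPM over the 12 libraries. Its level with olaparib was 4.21 ± 0.386 CPM and with DMSO 5.24 ± 0.710 CPM (SD, n = 4). The overlap of Ncf1 with Gtf2ird2 on the opposite strand is 11.1% of exon bases, and Gtf2ird2 was read at 9.38 to 14.9 CPM.

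Nos2 was the least abundant of these genes and had the largest log2 fold change of the 7 in both comparisons of olaparib, while with MNA Cybb and Rac2 moved further from 0. Nos2 (ENSMUSG00000020826, chromosome 11, 78920787 to 78960254, plus strand) stood at 12.6, 19.5, 22.7 and 20.7 CPM with DMSO, which were 268 to 678 counts, and at 30.6, 44.2, 91.8 and 70.0 CPM with olaparib, which were 866 to 2181 counts. MNA replicates 1, 3 and 4 stood at 8.47, 6.56 and 7.80 CPM and replicate 2 at 12.8 CPM, which were 170 to 358 counts. All olaparib libraries lay above the others, with replicate 1 the lowest and replicate 3 the highest of them. MNA replicates 1, 3 and 4 were the lowest of the 12, and MNA replicate 2 lay beside DMSO replicate 1. The log2 fold change was 1.64 ± 0.32 with olaparib (3.12-fold, adjusted p = 0.00394) and fell by 1.08 with MNA (standard error 0.33, adjusted p = 0.0309). Between olaparib and MNA it was 2.73 ± 0.33 (6.62-fold, adjusted p = 0.000234). The olaparib calls held in all 21 other fits. The call with MNA held in 14 of them and was lost with these 2 groups fitted alone and without any of DMSO replicates 2 to 4 or MNA replicates 1, 3 and 4 (adjusted p up to 0.0915), while without MNA replicate 2 the fall was 1.32 (standard error 0.33, adjusted p = 0.00385).

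**Figure D3:**
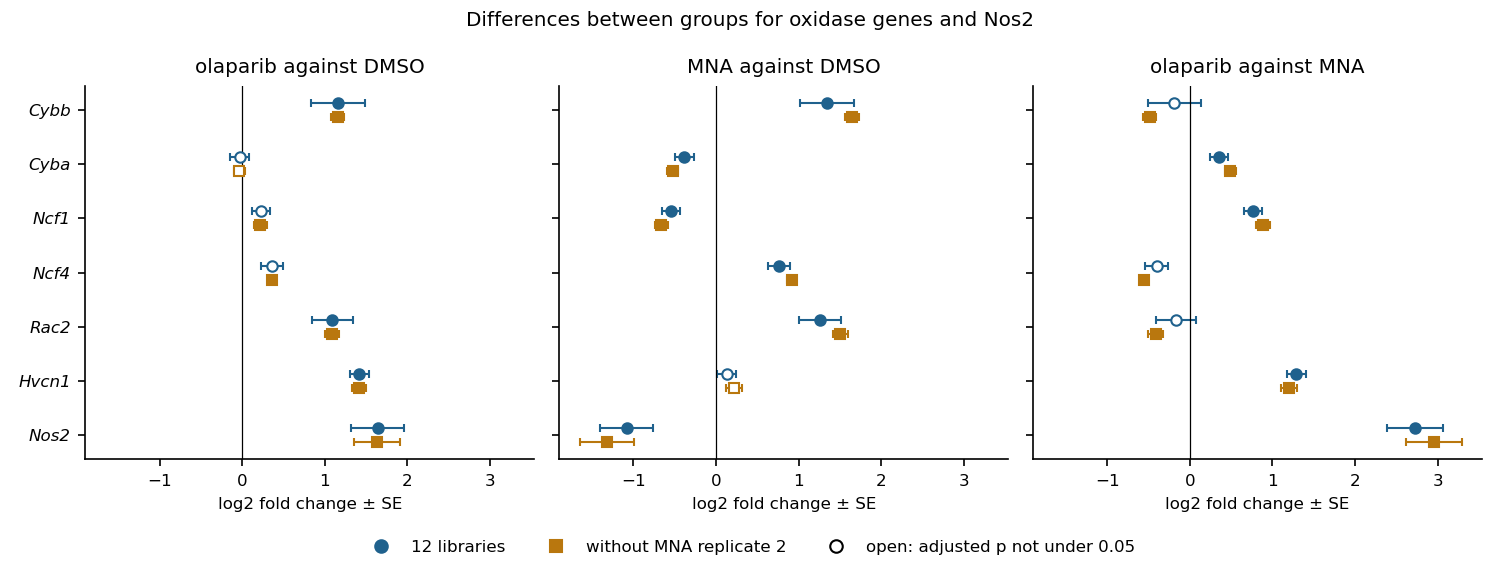
Log2 fold change ± standard error (horizontal axes) of the 7 genes in the 3 comparisons, from the fit of 12 libraries (circles) and without MNA replicate 2 (squares); open symbols had an adjusted p of 0.05 or more. Hvcn1 and Nos2 lie to the right of 0 with olaparib against both other groups, and Cyba, Ncf1 and Nos2 lie to the left of 0 with MNA against DMSO.

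The direct comparison of the treatments therefore separated 2 kinds of gene. Hvcn1, Nos2, Ncf1 and Cyba were higher with olaparib than with MNA, Cyba by 0.35 ± 0.11 (adjusted p = 0.0417), a call that held in 7 of 21 other fits. Cybb (-0.19 ± 0.32, adjusted p = 0.721), Rac2 (-0.17 ± 0.25, adjusted p = 0.673) and Ncf4 (-0.40 ± 0.14, adjusted p = 0.0517) did not pass in the 12 libraries. Without MNA replicate 2 all 3 were lower with olaparib, Cybb by 0.49 (standard error 0.08, adjusted p = 0.000284), Rac2 by 0.41 (standard error 0.09, adjusted p = 0.00239) and Ncf4 by 0.56 (standard error 0.05, adjusted p = 2.36e-06).

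Nos2 was also set against Arg1, the arginase that uses the same substrate. Arg1 stood at 435 to 691 CPM with DMSO and at 399 to 1030 CPM with olaparib, ranges that overlapped (log2 fold change 0.31, adjusted p = 0.829). It stood at 10.4 to 13.0 CPM in MNA replicates 1, 3 and 4 and at 359 CPM in MNA replicate 2. The fall with MNA was not called over the 4 libraries (log2 fold change -2.50, adjusted p = 0.0767) and was called without MNA replicate 2 (-5.60, adjusted p = 1.16e-08). The Nos2 to Arg1 ratio of counts was 0.0182 to 0.0449 with DMSO, 0.0499 to 0.129 with olaparib, 0.633 to 0.714 in MNA replicates 1, 3 and 4 and 0.0358 in MNA replicate 2. It lay above DMSO in the olaparib libraries, where the Arg1 ranges overlapped, and in the 3 MNA libraries in which both genes were low. The mean log2 ratio was 1.30 higher with olaparib (exact permutation p = 0.0286, 0.0643 adjusted over 9 tests) and 3.24 higher with MNA (9.46-fold, exact permutation p = 0.114). Without MNA replicate 2 the MNA ratios no longer overlapped those with DMSO, and the difference was 4.30 (19.6-fold, exact permutation p = 0.0571).

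Other genes of the pathway were taken from 6 lists with 87 genes, of which 75 were tested. Olaparib raised 29 and lowered 9 of them and MNA raised 27 and lowered 6, and between the treatments 13 were higher and 12 lower with olaparib. Over all tested genes the shares called higher and lower were 14.3% and 12.8% with olaparib, 16.3% and 12.3% with MNA, and 10.9% and 10.9% between the treatments, and the counts of each list below are read against them. Without MNA replicate 2 these counts were 31 and 12, 41 and 15, and 20 and 22, where the shares of all tested genes were 22.5% and 21.2%, 27.2% and 26.9%, and 21.5% and 20.7%. The 33 calls with MNA became 10, 5 and 7 without MNA replicate 1, 3 or 4 and 14, 13 and 21 without DMSO replicate 2, 3 or 4, and the 25 calls between the treatments became 16 without olaparib replicate 3 or 4. The median log2 fold change over the 75 genes was 0.20 with olaparib and 0.17 with MNA, where that of all tested genes was below 0.01 in both.

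Of the 20 other oxidase genes and activators, olaparib raised 10 and lowered 2 and MNA raised 9. The kinase Prkcb, a protein kinase C that phosphorylates Ncf1, rose with olaparib (0.85, adjusted p = 0.0335) and MNA (1.18, adjusted p = 0.0159), from 113 to 144 CPM with DMSO to 195 to 257 with olaparib and 326 to 363 in MNA replicates 1, 3 and 4. Itgb2, the integrin chain through which adhesion primes the burst, rose as well (0.68, adjusted p = 0.0170 with olaparib, and 0.81, adjusted p = 0.0154 with MNA). Pak1, a Rac-activated kinase, rose with MNA (0.97, adjusted p = 0.0144) and was lower with olaparib than with MNA (-0.74, adjusted p = 0.0229). The MNA values without replicate 2 were 1.44 for Prkcb (adjusted p = 4.33e-08), 0.999 for Itgb2 (adjusted p = 1.51e-08) and 1.18 for Pak1 (adjusted p = 2.67e-07). Vav3, an exchange factor for Rac GTPases, fell with olaparib (-0.44, adjusted p = 0.0185), as did Arhgdia (-0.21, adjusted p = 0.0282), which holds Rac proteins in the cytosol. The related genes Vav1 (0.55, adjusted p = 0.00282) and Arhgdib (0.35, adjusted p = 0.0122) went the other way and rose with olaparib.

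**Figure D4:**
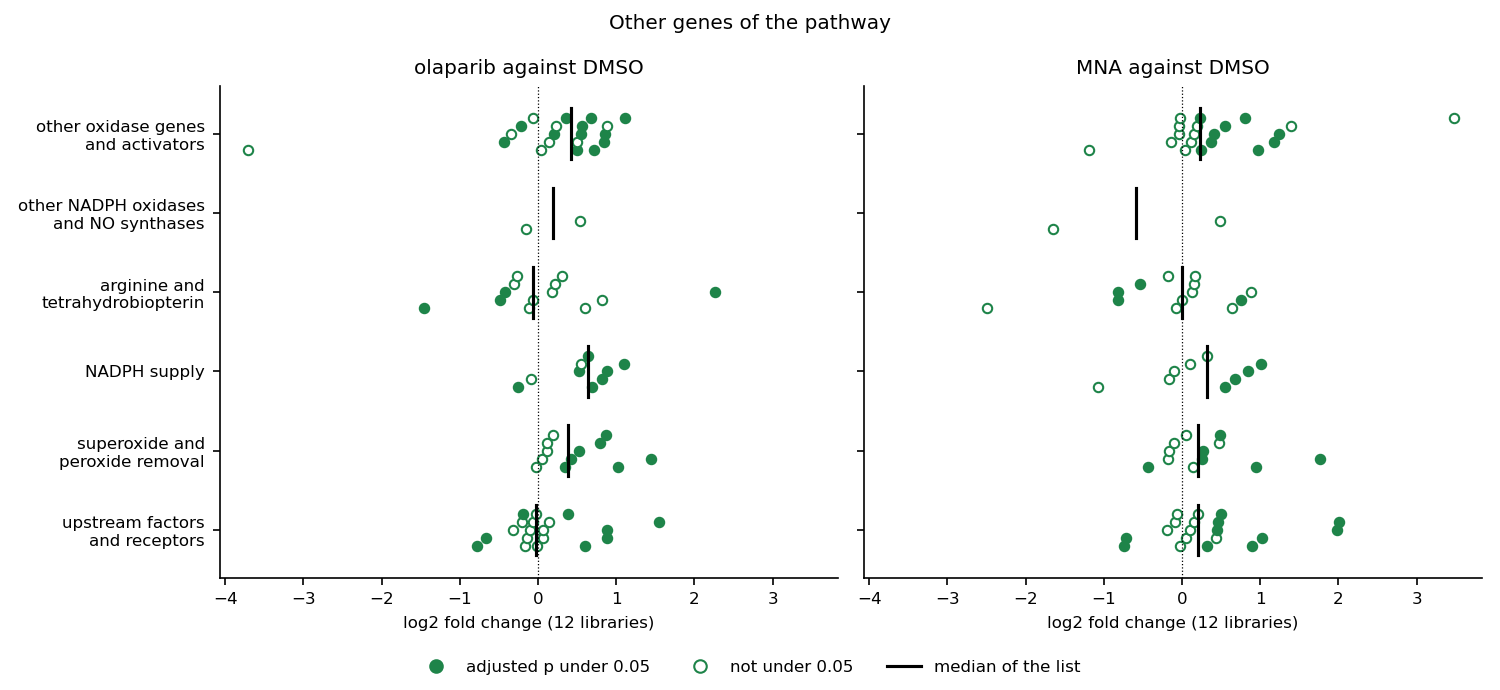
Log2 fold change over 12 libraries (horizontal axes) of the 75 tested genes in 6 pathway lists, with olaparib and with MNA against DMSO. Each circle is 1 gene, filled where the adjusted p was under 0.05, and the black bars mark the medians of the lists. The NADPH supply list has medians of 0.64 and 0.31, and the far points of the top list are S100a9, whose counts ran from 0 to 517 over the libraries.

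The other NADPH oxidases and NO synthases were near the limit of detection. Of 11 genes, 2 were tested, Noxo1 and Duoxa1. In the comparisons with DMSO edgeR and DESeq2 each called 0 of them, and 0 had an unadjusted p under 0.05 with edgeR, while Duoxa1 had one with DESeq2 in the MNA comparison. In the fit without MNA replicate 2 edgeR called Duoxa1 lower with MNA than with DMSO (adjusted p = 0.00106) and higher with olaparib than with MNA (adjusted p = 0.000427), at a mean of 0.308 CPM with DMSO and 0.0137 CPM in MNA replicates 1, 3 and 4. Duox1 had 0 counts in all 12 libraries, where 0 counts in 1 library taken alone still allow about 3. Nos1, Nox3 and Nox4 had at most 2 counts. Nox1 reached 8 counts and the endothelial enzyme Nos3 reached 7. No other catalytic gene of these families than Cybb and Nos2 passed the filter on low counts.

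Of 13 tested genes of arginine and tetrahydrobiopterin supply, 9 were not called with olaparib, which raised 1 and lowered 3, a share near that of all tested genes. The gene raised was Ass1, which remakes arginine from citrulline, at 109 to 156 CPM with DMSO and 480 to 894 CPM with olaparib (log2 fold change 2.26, adjusted p = 2.51e-05) and 121 to 158 CPM with MNA (0.12, adjusted p = 0.625). An arginine importer, Slc7a1, fell with olaparib (-1.45, adjusted p = 0.00311) from 219 to 271 CPM down to 74.1 to 102 CPM, and with MNA (-0.81, adjusted p = 0.0393). Gch1, the rate-limiting enzyme of tetrahydrobiopterin synthesis, was also lower with both treatments (-0.49, adjusted p = 0.0241 with olaparib, and -0.54, adjusted p = 0.0220 with MNA). Slc7a2, another arginine importer of this list, was more abundant than Slc7a1, at 1446 to 1961 CPM with DMSO. It was not called with olaparib (-0.31, adjusted p = 0.250) and fell with MNA (-0.82, adjusted p = 0.018). Leaving out MNA replicate 2 gave -1.22 for Slc7a1 (adjusted p = 1.17e-05) and -0.71 for Gch1 (adjusted p = 2.68e-05) with MNA.

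NADPH, the electron donor of both enzymes, comes largely from the pentose phosphate pathway. Of 9 genes of NADPH supply, olaparib raised 6 and lowered 1 (Nadk, NAD kinase) and MNA raised 4. G6pdx, the entry enzyme of that pathway, stood at 158 to 187 CPM with DMSO, 300 to 333 CPM with olaparib and 298 to 315 CPM in MNA replicates 1, 3 and 4. Pgd, the next dehydrogenase, rose with olaparib (1.09, adjusted p = 0.00332) and with MNA (1.01, adjusted p = 0.0142). Me1, a malic enzyme that also makes NADPH, was higher with olaparib than with MNA (1.63, adjusted p = 0.0105). With MNA replicate 2 left out, Pgd rose by 1.23 with MNA (adjusted p = 1.07e-08), and Me1 was called lower with MNA than with DMSO (-1.78, adjusted p = 3.58e-06).

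Of 12 tested genes that remove superoxide and peroxide, olaparib raised 7, and MNA raised 5 and lowered 1, the lipid peroxidase Gpx4 (-0.44, adjusted p = 0.0255). The peroxiredoxin Prdx1 stood at 1390 to 1938 CPM with DMSO, 4359 to 4834 CPM with olaparib and 6367 to 7486 CPM in MNA replicates 1, 3 and 4. Catalase (Cat) rose with olaparib (1.02, adjusted p = 0.000256) and with MNA (0.49, adjusted p = 0.0195), and was higher with olaparib than with MNA (0.54, adjusted p = 0.00936). Left without replicate 2, the MNA group gave 0.62 for Cat (adjusted p = 1.16e-06) and -0.60 for Gpx4 (adjusted p = 5.09e-06).

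Among 19 tested factors and receptors known to act upstream of Nos2 and Cybb, olaparib raised 5 and lowered 3 and MNA raised 8 and lowered 2. Irf1, an interferon-induced factor that acts on Nos2, stood at 46.9 to 69.3 CPM with DMSO, 40.8 to 61.7 CPM with olaparib and 199 to 303 CPM in MNA replicates 1, 3 and 4. It rose with MNA (1.99, adjusted p = 0.0142) while Nos2 fell. The receptor Tlr2 rose with olaparib (1.55, adjusted p = 0.0146) and with MNA (2.01, adjusted p = 0.0142). Cebpb, a factor of the M2 program that also binds the Nos2 promoter, fell with MNA (-0.72, adjusted p = 0.0197). In the fit without MNA replicate 2 the MNA values were 2.31 for Irf1 (adjusted p = 1.72e-07), 2.33 for Tlr2 (adjusted p = 1.45e-07) and -0.96 for Cebpb (adjusted p = 1.04e-05). Spi1, which encodes PU.1, was not called (-0.01, adjusted p = 0.916 with olaparib, and 0.05, adjusted p = 0.570 with MNA).

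The pattern of each gene over the 12 libraries was compared with those of 9739 genes that averaged 100 counts or more, by the root mean square difference of log2 CPM centred on each gene's mean. The closest genes were Gm2a, Themis2 and Mpeg1 for Cybb (0.119 to 0.143), Gsn, P2ry6 and Nfe2l2 for Rac2, and Mknk2, Hacd3 and Tm2d2 for Ncf4. For Cyba they were Dnase2a, Rpl13a and Nudt3, and for Ncf1 Lcp1, Csrp1 and Wwp1. Hvcn1 was closest to Gas6 (0.103), Cbr3 and Mfge8. Nos2 had no gene as close, with Rab11fip4 at 0.420, and Klrb1a at 0.449. Among the 7 genes themselves the pairs with the smallest difference were Cybb with Rac2 (0.204) and Cyba with Ncf1 (0.219). This measure also depends on how far each gene varied around its own mean, which was 0.229 for Cyba, 0.359 for Ncf1, 0.748 for Cybb and 1.17 for Nos2. A small difference from Cyba therefore says little about a shared pattern.

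These genes are also expressed by other phagocytes, so marker levels are given beside them. All 10 macrophage markers were detected, with Fcgr1 the lowest at 3 to 66 counts. Their summed level was 4839 to 6083 CPM with DMSO, 9241 to 11040 with olaparib, 6011 to 7904 in MNA replicates 1, 3 and 4 and 4447 in MNA replicate 2. The 13 neutrophil markers summed to 12.7 to 30.8 CPM with DMSO, 68.1 to 81.8 with olaparib and 28.7 to 89.6 in MNA replicates 1, 3 and 4, and 13.0 in MNA replicate 2. With olaparib that sum was mostly Mmp8 (55.1 to 69.6 CPM), followed by Csf3r (6.92 to 9.59 CPM) and S100a8 (2.76 to 3.38 CPM). With DMSO, Csf3r stood at 6.48 to 13.8 CPM and S100a8 at 1.11 to 2.77 CPM. Ly6g and Elane were at 0 in every olaparib library, and Ly6g also in every DMSO library. MNA against DMSO raised 2 and lowered 0 of the 6 neutrophil markers tested over the 12 libraries, where 16.3% of all tested genes were called higher. In the fit without MNA replicate 2 it raised 6 and lowered 1 of the 7 tested there. The shares of all tested genes in that fit were 27.2% higher and 26.9% lower. The 8 markers of eosinophils, basophils and mast cells summed to 30.5 to 58.2 CPM with olaparib and at most 10.5 otherwise, nearly all from Siglecf, with Epx and Prg2 below 1 CPM. The 7 dendritic cell markers summed to 17.5 to 26.7 CPM over all libraries, of which Zbtb46 alone gave 11.0 to 19.7 CPM. Of 3 tested over the 12 libraries, olaparib raised Ccr7 (2.62, adjusted p = 0.0362) and lowered Xcr1 (-1.19, adjusted p = 0.0353). MNA raised Ccr7 (4.55, adjusted p = 0.0142), from at most 0.381 CPM with DMSO to 5.59 to 10.6 CPM in replicates 1, 3 and 4. The 5 B cell markers summed to at most 6.83 CPM, and of 3 tested MNA raised 3 and olaparib 0. Shares of all tested genes called higher and lower were 14.3% and 12.8% with olaparib and 16.3% and 12.3% with MNA. The 6 T and NK cell markers summed to 11.0 to 18.3 CPM with olaparib and at most 3.95 otherwise, mostly from Klrb1c. The 6 erythroid markers reached 56.0 CPM in an MNA library and the 6 stromal markers 2.89. The part of these cells in the results above was not tested.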

How the data were processed

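RNA was sequenced from bone marrow-derived macrophages in 12 libraries, 4 per group, grouped by the treatment in the labels. The authors built libraries with a stranded mRNA kit, aligned single-end reads to GRCm38.p5 with STAR 2.5.2b and deposited raw counts per Ensembl gene, 1 file per library; which strand column of STAR they kept is not given in the sources used here. Of 35275 gene IDs, 34490 were named from the annotation.

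Counts were analysed as deposited with edgeR 4.0.16 in R 4.3.3. Genes passed filterByExpr (minimum count 10, minimum total 15), which left 12849, and 13428 were at 0 in every library. One quasi-likelihood fit of the 12 libraries without covariates used TMM normalization, and p-values were adjusted over all tested genes by the Benjamini-Hochberg method. Standard errors are the log2 fold change divided by the square root of F. Ratios within a library used counts plus 0.5 and exact two-sided permutation tests (SciPy 1.17.1). The fits were tested on simulated data. DESeq2 1.42.0, other normalizations, filters and thresholds, a replicate block, fits of 2 groups and fits with 1 library left out were run as alternatives.

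The genes and all lists were chosen with earlier results of these data known. Of each pathway list, up to 4 called genes with the smallest p of a comparison could be named, together with genes whose direction differed from the list's median, genes not called and, for the likeness of patterns, the 3 closest genes. Some genes that this rule allows are not reported here. Deviations from the group means correlated between olaparib and DMSO libraries of the same number (r = 0.227, 0.172, 0.225 and 0.408 across genes, which are not independent), so the numbers were taken to pair these groups. The main fit and the exact permutation tests of the ratios did not use this pairing and treated the libraries as unpaired. The replicate block and the sign flips, run as alternatives, did use it. With 21146291 to 31446849 counts per library the fewest counts of any of the 7 genes were 170, of Nos2, and errors are given as the spread between libraries.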

Additional observations from a re-analysis of the deposited data

Results flagged for a closer look

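For genes and ratios with values in the text, though not for all of them, the 4 libraries of a group were tested for a sample far from the others. The measure was the gap to its nearest neighbour as a share of the group's range (Dixon's test, critical value 0.829). Chance flags about 1 in 20 groups, and 11 of 66 were flagged. Of these, 9 were MNA replicate 2.

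In MNA replicate 2, Cybb stood at 404 CPM where the other MNA libraries had 1600 to 1673 (share of the range 0.942). Rac2 stood at 232 against 624 to 630 CPM (0.983) and Ncf4 at 345 against 564 to 593 CPM (0.881). Arg1 was the gene that was far higher in this library, at 359 against 10.4 to 13.0 CPM (0.993). Prkcb stood at 117 against 326 to 363 CPM (0.852), G6pdx at 184 against 298 to 315 CPM (0.864) and Pgd at 209 against 453 to 479 CPM (0.904). The log2 ratio of Cybb to Cyba was -1.48 against 0.91 to 1.19 (0.895), and that of Nos2 to Arg1 was -4.80 against -0.66 to -0.49 (0.960).

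The other 2 were olaparib libraries. Ass1 stood at 894 CPM in olaparib replicate 4 and at 480 to 546 CPM in the others (0.841). Cebpb stood at 190 CPM in olaparib replicate 3 and at 168 to 171 CPM in the others (0.864).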

How the results depend on the processing

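The log2 fold changes of the 7 genes kept their direction under all 462 alternatives, and 397 of these also kept their side of the threshold, while 48 lost a call and 17 gained one. For 22 of the other genes named with a test, 1291 of 1443 kept both, 107 lost a call and 45 gained one, and 0 changed direction. The 9 ratio differences kept their direction under each alternative. They also stayed above the adjusted threshold, but many alternatives could not have changed this. With a library left out, the exact permutation test of 3 against 4 cannot give a p below 0.0571. The ratio tests between the groups left whole cannot pass either once adjusted over the 9 tests. With sign flips within replicate pairs the smallest p possible is 0.125, which is also above the threshold.

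Counts of called genes moved most with MNA. With the DMSO and MNA groups fitted alone edgeR called 0 of the 7 genes and 0 of the 75 pathway genes, although 6 and 40 had an unadjusted p under 0.05 there, and DESeq2 on the 12 libraries called 6 and 40. With olaparib and MNA fitted alone 15 pathway genes were called. At an adjusted p under 0.01 the MNA comparison gave 0 and 0 calls (6 and 46 had an unadjusted p under 0.05), olaparib against DMSO 23 pathway genes and olaparib against MNA 10. Asking also for a 2-fold change left 3 genes and 7 pathway genes with MNA, 7 pathway genes with olaparib, and 2 genes and 5 pathway genes between the treatments. Leaving out 1 library gave 3 to 6 genes and 5 to 56 pathway genes with MNA (56 without MNA replicate 2), and 3 to 7 genes and 16 to 42 pathway genes between the treatments (7 and 42 without MNA replicate 2). The cause was not tested.

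With replicate number as a block the counts were 4, 6 and 5 of the 7 genes (olaparib, MNA and olaparib against MNA; 4, 6 and 4 without it) and 40, 38 and 26 pathway genes. The block changed 1 call among the 7 genes, Ncf4 between olaparib and MNA (-0.38, edgeR adjusted p = 0.0492). Without MNA replicate 2 and with the block, 57 pathway genes were called with MNA, and 7 genes and 44 pathway genes between the treatments. Deviations did not correlate above 0.1 in every pair of MNA with DMSO libraries (r = -0.00938 to 0.277) or of olaparib with MNA libraries (0.0696 to 0.392). By the longest transcript instead of all exons the DMSO levels of Cyba and Ncf4 were still the highest per kilobase (1555 and 209 CPM per kb), and Ncf1 (79.6) stood above Rac2 (72.5).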
